A study of Homo sapiens with 4 samples.

Results

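The genes examined were 9 receptor tyrosine kinases, KIT, PDGFRA, PDGFRB, EGFR, ERBB2, ERBB3, MET, AXL and ROR1, together with KITLG, the gene of the KIT ligand. They were taken by name, and all 10 were found among the 37450 features of the count table and passed the filter on low counts. The set was put together because KIT was much lower after CBX3 knockdown, so the fold changes of the 10 genes in that comparison are given as a description, without a test, and support nothing by themselves. The material was messenger RNA of 143B cells, a human osteosarcoma line, collected 2 days after lipid transfection of siRNA. A pair of libraries came from cells given siRNA against CBX3 (siCBX3), which encodes a heterochromatin protein, and a pair from cells given a control siRNA without a target (siNC). Every library came from the same line, wild type per the labels and grown in serum. Nothing in the labels says whether replicates were separate cultures. A p-value here therefore reflects the scatter of these 4 libraries, largely pooled across genes, which may be technical.

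Receptor tyrosine kinases are single-pass membrane proteins that bind a growth factor outside the cell, pair up and phosphorylate tyrosines inside it, from which the RAS-ERK, PI3K-AKT, PLC-gamma and STAT routes start. KIT serves blood stem cells, mast cells, melanocytes and germ cells, and the PDGF receptors serve mesenchymal cells, the lineage from which osteosarcoma arises. EGFR, ERBB2 and ERBB3 form mixed pairs, MET binds hepatocyte growth factor, AXL binds GAS6, and ROR1 binds WNT5A.

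Total counts were 36509298 and 38717507 in the siCBX3 libraries and 37318382 and 40336907 in the siNC libraries. CBX3 itself stood at 57.2 ± 0.165 CPM in siCBX3 and 523 ± 22.2 CPM in siNC (SD, n = 2 each; CPM is the count scaled to the TMM-adjusted library total), a log2 fold change of -3.19 (SE 0.08). Of 8 osteoblast and mesenchymal markers, RUNX2 had 198 and 228 counts in siCBX3 and 167 and 187 in siNC, while SP7 and ALPL, which mark the maturing osteoblast, had 4 counts or fewer in every library. The summed level of these 8 markers was 3170 to 3250 CPM in siCBX3 and 1070 to 1090 CPM in siNC, most of it SPARC and VIM. Mast cell markers, of interest because mast cells carry KIT, summed to at most 0.0567 CPM in siCBX3 and 0.106 CPM in siNC over the 4 measured, and TPSAB1 had no counts. The 5 melanocyte markers summed to 1.29 to 1.87 CPM in siCBX3 and 1.51 to 1.52 CPM in siNC. The 5 leukocyte markers summed to 595 to 658 CPM in siCBX3 and 397 to 431 CPM in siNC, nearly all of it CD68, at a mean of 626 CPM in siCBX3 and 413 CPM in siNC. The leukocyte marker PTPRC had 10 and 4 counts in siCBX3 and 18 and 12 in siNC, CD14 had 12 and 4 in siCBX3 and 13 in both siNC libraries, and CD3E had 2 in both siCBX3 libraries and 4 in both siNC libraries. The 4 epithelial markers summed to 345 to 355 CPM in siCBX3 and 566 to 576 CPM in siNC, mostly KRT8. EPCAM had 342 and 387 counts in siCBX3 and 532 and 598 in siNC (log2 fold change -0.51). KRT19 had 94 to 142 counts per library and CDH1 4 to 8. The 4 endothelial markers summed to 1.56 to 1.79 CPM in siCBX3 and 1.85 to 2.20 CPM in siNC. The part of the SPARC, VIM, CD68, KRT8 and EPCAM differences in the receptor values was not tested.

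Within the set, KIT was 15.7-fold lower in siCBX3 than in siNC, PDGFRA 4.56-fold and KITLG 3.75-fold lower. AXL, MET and ERBB3 were lower by smaller factors, while EGFR, PDGFRB and ROR1 overlapped between groups and ERBB2 stood slightly higher in siCBX3. In the fit across all 20999 genes tested, 6 of the 10 had an adjusted p under 0.05, all lower in siCBX3, and 0 were higher. The background shares were 48.4% of all genes in either direction, 24.0% lower and 24.4% higher. The split depended on the setting. With library totals 4243 genes were higher and 5917 lower, and with upper-quartile scaling 4657 were higher and 5626 lower. With DESeq2 4299 were higher and 3977 lower. The libraries of the groups did not overlap for 7 of the 10, against 73.9% of all genes tested. Because the set was chosen on this comparison, nothing is read from these counts. The median log2 fold change of the 10 was -0.71, against -0.01 over all genes tested. In bulk RNA, fewer cells carrying a transcript and less transcript per cell cannot be told apart.

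**Figure D1:**
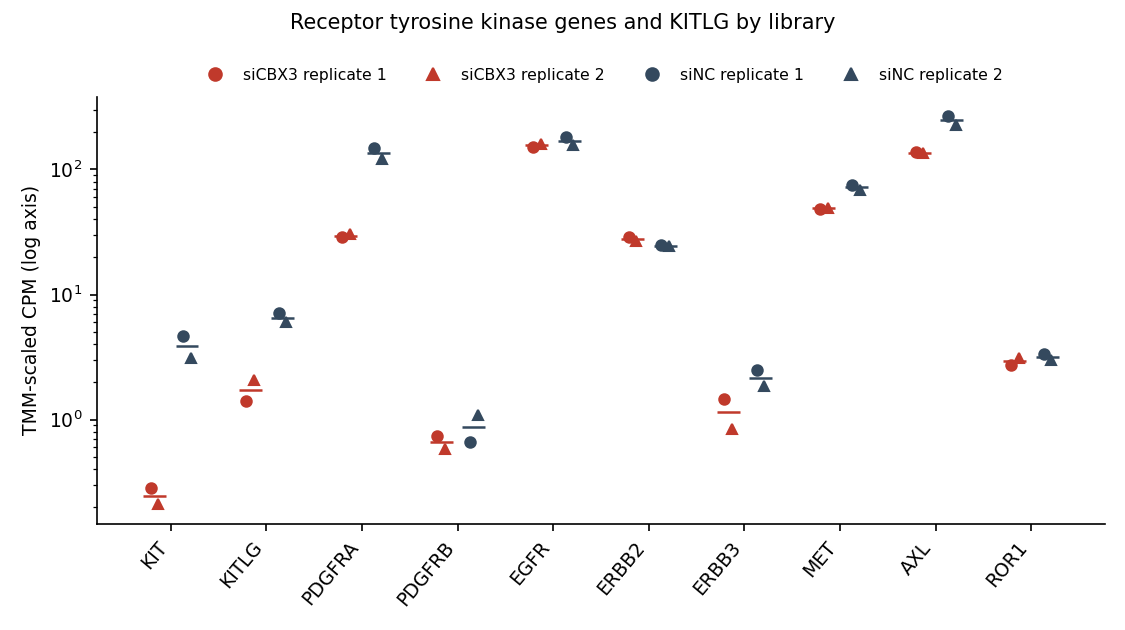
TMM-scaled CPM (log axis) of the 10 genes in each library, siCBX3 in red and siNC in dark blue, circles for replicate 1, triangles for replicate 2 and a line at the mean. KIT, KITLG and PDGFRA show the widest gaps, and the points of EGFR, PDGFRB and ROR1 overlap between groups.

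KIT, at chromosome 4 from 54657918 to 54740715 on the plus strand (GRCh38), is the receptor of stem cell factor. Its counts were 10 and 8 in siCBX3 and 176 and 131 in siNC. Both siCBX3 libraries were low and both siNC libraries high, with no overlap. The level was 0.247 ± 0.0513 CPM in siCBX3 and 3.89 ± 1.10 CPM in siNC (SD, n = 2 each). The log2 fold change was -3.96 (SE 0.33), the 34th lowest of 20999, and the 4 pairings of a siCBX3 library with a siNC library gave log2 ratios from -4.47 to -3.45. KIT shares no exon base with another feature of the table.

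KITLG, at chromosome 12 from 88492793 to 88580851 on the minus strand, encodes stem cell factor, the ligand that binds KIT. It had 50 and 78 counts in siCBX3 and 266 and 252 in siNC, again with no overlap. Its level was 1.74 ± 0.452 CPM in siCBX3 and 6.52 ± 0.762 CPM in siNC, with a log2 fold change of -1.90 (SE 0.20). It shares 1.32% of its exon bases with RP11-900F13.3 on the opposite strand, which had at most 3 counts in any library. The receptor and its ligand were thus both lower in siCBX3, KIT by the larger factor.

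The windows around the annotated starts of KIT and KITLG are shown because this receptor and its ligand were low in the same libraries. They run from 250 bases before to 50 bases after the start, 5′ to 3′ on the gene's strand, from RefSeq on GRCh38.p14, which held windows for 9 of the 10 genes. Capitals mark matches, on either strand, to the GC box GGGCGG, the TATA box TATAAA, the E-box CACGTG or the AP-1 motif TGANTCA, none of which overlap one another here. The KIT window is chr4:54657707-54658006 (plus strand) and the KITLG window chr12:88580422-88580721 (minus strand).
KIT: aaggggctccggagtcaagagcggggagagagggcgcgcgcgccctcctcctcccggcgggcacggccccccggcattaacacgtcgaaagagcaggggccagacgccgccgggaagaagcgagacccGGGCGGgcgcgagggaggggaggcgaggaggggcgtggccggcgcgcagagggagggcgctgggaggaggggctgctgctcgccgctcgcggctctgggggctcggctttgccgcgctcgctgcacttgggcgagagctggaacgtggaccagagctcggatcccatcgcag
KITLG: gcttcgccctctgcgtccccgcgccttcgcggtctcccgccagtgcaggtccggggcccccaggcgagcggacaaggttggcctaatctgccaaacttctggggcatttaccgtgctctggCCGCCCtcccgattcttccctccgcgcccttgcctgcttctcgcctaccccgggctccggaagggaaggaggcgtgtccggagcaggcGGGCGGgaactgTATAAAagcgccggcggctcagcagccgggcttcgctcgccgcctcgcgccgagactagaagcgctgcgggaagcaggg
The KIT window held 38 CpG dinucleotides and was 74.3% G or C, and the KITLG window held 34 and was 69.7%. The medians over 35116 windows were 14 and 58.7%. Among others of the set, upstream EGFR held 33 at 75.3%, MET 30 at 69.3%, ROR1 29 at 69.0% and ERBB2 24 at 60.7%. PDGFRB (11 at 59.3%), AXL (7 at 66.0% and 17 at 53.7%) and downstream EGFR (1 at 42.0%) held fewer. Many CpG dinucleotides were thus not particular to KIT and KITLG. KIT had 1 GC box, and KITLG had 2 and a TATA box. Over all windows, 45.0% held the GC box, 11.5% the TATA box, 7.26% the E-box and 7.71% the AP-1 motif. A match is a description of letters, not of binding.

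PDGFRA, the receptor of PDGF-A and PDGF-C homodimers among others, lies at chromosome 4 from 54229097 to 54298247 (plus strand), upstream of KIT on the same strand. It had 1008 and 1152 counts in siCBX3 and 5535 and 5144 in siNC, so both siCBX3 libraries held far fewer reads than either siNC library. The level was 29.5 ± 1.27 CPM in siCBX3 and 135 ± 17.5 CPM in siNC, with a log2 fold change of -2.19 (SE 0.09). Of the 10 genes it had the second lowest fold change after KIT. PDGFRA shares 15.8% of its exon bases with RP11-231C18.3, a feature on the same strand that takes 60.1% of its own exon bases from PDGFRA and 39.9% from FIP1L1. That feature has no exon base outside these genes, yet had 1977 and 2034 counts in siCBX3 and 3842 and 4068 in siNC. Some reads may thus be counted for both, or a part of the PDGFRA count may belong to it. How reads on shared bases were assigned was not tested.

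RefSeq gives PDGFRA a pair of starts, and both windows are shown because they differ in base composition. The upstream window is chr4:54229043-54229342 and the downstream window chr4:54233710-54234009, both on the plus strand, with capitals as above.
PDGFRA upstream: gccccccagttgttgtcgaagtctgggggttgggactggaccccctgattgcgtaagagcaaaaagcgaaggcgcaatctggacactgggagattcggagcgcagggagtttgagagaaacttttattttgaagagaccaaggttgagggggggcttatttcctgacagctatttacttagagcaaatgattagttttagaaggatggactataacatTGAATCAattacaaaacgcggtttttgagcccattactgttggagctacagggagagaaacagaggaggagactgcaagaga
PDGFRA downstream: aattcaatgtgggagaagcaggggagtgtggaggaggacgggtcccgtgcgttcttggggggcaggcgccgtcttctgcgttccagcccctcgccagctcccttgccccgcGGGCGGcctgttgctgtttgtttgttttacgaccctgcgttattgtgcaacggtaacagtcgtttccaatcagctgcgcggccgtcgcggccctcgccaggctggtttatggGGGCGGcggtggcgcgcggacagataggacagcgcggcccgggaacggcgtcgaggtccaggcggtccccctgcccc
The upstream window held 8 CpG dinucleotides at 47.0% G or C with 1 AP-1 match and no GC box, and the downstream window 32 at 66.7% with 2 GC boxes and no AP-1 match. The counts are per gene and do not say which start was used.

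PDGFRB, the receptor that prefers PDGF-B and marks pericytes and many fibroblasts, lies at chromosome 5 from 150113837 to 150155872 (minus strand) and was scarce. It had 26 and 22 counts in siCBX3 and 25 and 46 in siNC, and the groups overlapped. The log2 fold change was -0.42 (SE 0.40), and it lay at -0.01 without siNC replicate 2 and at -0.73 without siNC replicate 1, so its size rests on single libraries. The large PDGFRA difference and the small PDGFRB one were not tested against each other.

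The ERBB receptors differed among themselves. EGFR (chromosome 7, from 55019021 to 55211628, plus strand), which binds EGF, TGF-alpha, amphiregulin and HB-EGF, had 152 and 160.0 CPM in siCBX3 and 182 and 156 CPM in siNC, so the groups overlapped. Its log2 fold change was -0.11 (SE 0.08). Without siNC replicate 2 it was -0.21 and past the adjusted threshold, and without siNC replicate 1 it was 0.00. EGFR shares 1.49% of its exon bases with the antisense gene EGFR-AS1. ERBB2 (chromosome 17, from 39687914 to 39730426, plus strand), the partner without a known ligand, had 29.0 and 27.0 CPM in siCBX3 and 24.9 and 24.2 CPM in siNC, a log2 fold change of 0.19 (SE 0.09), or 0.11 with library totals in place of TMM. It was the only one of the 10 whose siCBX3 libraries both lay above the siNC libraries. ERBB2 shares 7.41% of its exon bases with MIEN1 and PGAP3 on the opposite strand.

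ERBB3 (chromosome 12, from 56079857 to 56103505, plus strand), the neuregulin receptor with very weak kinase activity, had 51 and 32 counts in siCBX3 and 94 and 78 in siNC. The groups did not overlap, but the counts were low and the siCBX3 replicates far apart. The log2 fold change was -0.92 (SE 0.29), and it passed the adjusted threshold in 8 of 13 other settings. It was -0.58 without siCBX3 replicate 2 and -0.70 without siNC replicate 1, and failed the threshold in both. ERBB3 also runs into RP11-603J24.9 on the same strand over 31 bases. That feature has 93.7% of its exon bases in PA2G4 and the other 6.34% in ERBB3. It had 4232 and 4660 counts in siCBX3 and 6834 and 7694 in siNC. Its part in the ERBB3 count was not tested.

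MET (chromosome 7, from 116672390 to 116798386, plus strand), the receptor of hepatocyte growth factor, had 48.6 and 48.9 CPM in siCBX3 and 75.6 and 68.1 CPM in siNC. The siCBX3 replicates nearly coincided and lay under both siNC values. The log2 fold change was -0.56 (SE 0.08), with a range of -0.64 to -0.48 over all 13 other settings, and MET shares no exon base with another feature.

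AXL (chromosome 19, from 41219203 to 41261766, plus strand), a TAM-family receptor linked to invasion and drug resistance in tumours, had 137 and 134 CPM in siCBX3 and 266 and 228 CPM in siNC. It was the most abundant receptor of the set per length in both groups, and its groups did not overlap. The log2 fold change was -0.87 (SE 0.08), and between -0.97 and -0.76 over the 13 other settings. AXL shares 1.30% of its exon bases with CTD-2195B23.3 on the opposite strand.

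ROR1 (chromosome 1, from 63774022 to 64181498, plus strand), a receptor with an atypical kinase domain, had 2.75 and 3.09 CPM in siCBX3 and 3.37 and 3.01 CPM in siNC. The groups overlapped at 97 to 127 counts per library, and the log2 fold change of -0.13 was smaller than its SE of 0.20.

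**Figure D2:**
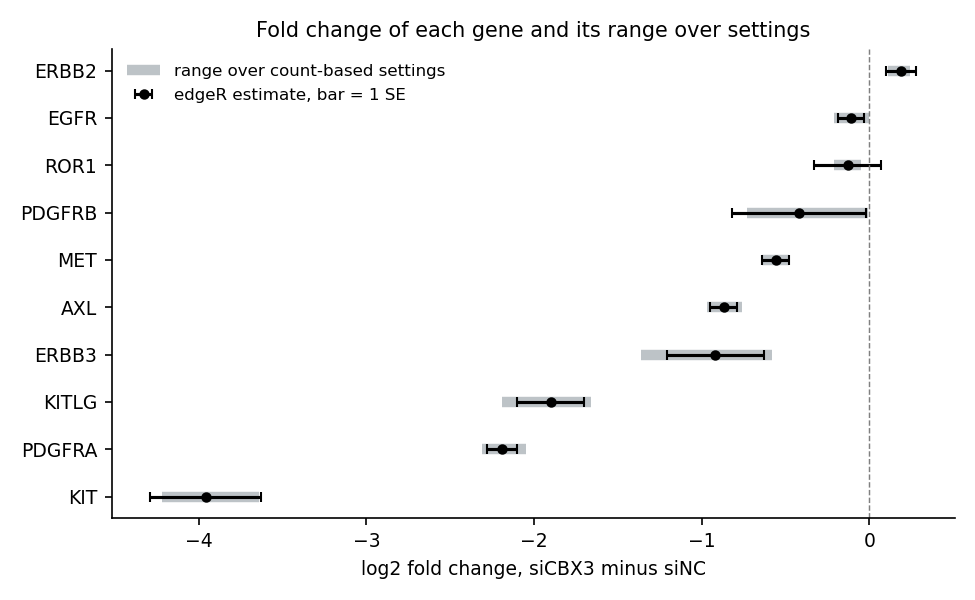
Log2 fold change (siCBX3 minus siNC) of each gene from edgeR with a bar of 1 SE, over a grey band that spans the main fit and the 11 other settings that use counts. The band of KIT runs from -4.22 to -3.64, and only ERBB2 sits above 0 over its whole band.

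Compared per length, on the authors' RPKM (counted reads scaled by exon length and library total), the order of the set differed between groups. In siCBX3 it ran AXL (mean 25.5 RPKM), EGFR (12.2), MET (6.73), PDGFRA (2.95), ERBB2 (2.63), ROR1 (0.423), KITLG (0.280), ERBB3 (0.128), PDGFRB (0.0897) and KIT (0.0432), with ERBB3 and PDGFRB overlapping between libraries. In siNC it ran AXL (49.2 RPKM), PDGFRA (14.2), EGFR (13.8), MET (10.5), ERBB2 (2.44), KITLG (1.11), KIT (0.716), ROR1 (0.488), ERBB3 (0.257) and PDGFRB (0.127), with PDGFRA and EGFR overlapping. All other neighbours in either order were separated in each library of the group. PDGFRA thus stood next to ERBB2 in siCBX3, against a level shared with EGFR in siNC, and KIT was lowest of the 10 in siCBX3, against a place between KITLG and ROR1 in siNC.

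The summed RPKM of the 9 receptors was 50.3 and 51.0 in siCBX3 and 97.0 and 86.4 in siNC. AXL made up 50.9% and 49.7% of it in siCBX3 and 53.7% and 53.6% in siNC. PDGFRA made up 5.64% and 6.00% in siCBX3 and 15.7% and 15.2% in siNC, while EGFR made up 23.4% and 24.6% in siCBX3 and 15.1% in both siNC libraries. EGFR was therefore a larger share of a smaller total, at RPKM values of 11.8 and 12.5 in siCBX3 and 14.6 and 13.0 in siNC. KIT was 0.0979% and 0.0728% of the total in siCBX3 and 0.874% and 0.676% in siNC.

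**Figure D3:**
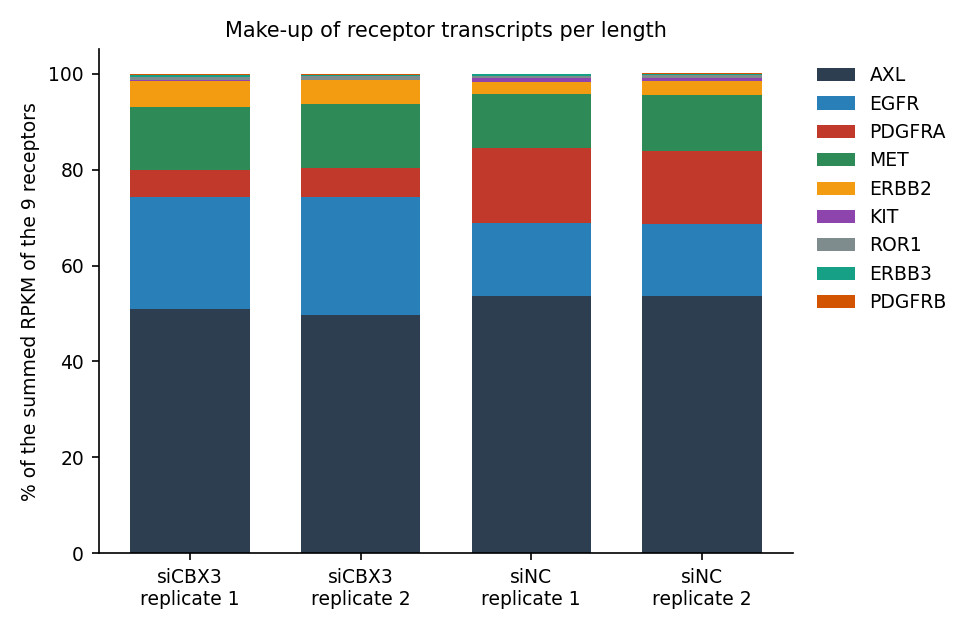
Percent of the summed RPKM of the 9 receptors taken by each, stacked by library, with the siCBX3 libraries on the left and the siNC libraries on the right. The red PDGFRA segment is 5.64% and 6.00% in siCBX3 and 15.7% and 15.2% in siNC, and AXL fills 49.7% to 53.7% of every bar.

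Tested genes close to KIT in level and pattern, by the root mean square difference of log2 CPM over the 4 libraries, were FGF9 (0.305), SLC7A3 (0.311), ADAM32 (0.364) and MEST (0.396). Without siCBX3 replicate 1 the log2 fold changes of ADAM32 and MEST were -4.39 and -4.98, against -3.69 and -4.14 with all libraries. Each of the 4 genes had 4 to 17 counts per library in siCBX3 and 128 to 204 in siNC. FGF9 encodes a fibroblast growth factor. The measure takes in the level as well as the pattern, over 4 libraries.

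The question whether the ligands of these receptors changed as well was read from 19 genes, of which 14 passed the count filter. Of these, 6 were higher and 3 lower in siCBX3 at an adjusted p under 0.05 (edgeR), with a median log2 fold change of 0.35; without siNC replicate 1 the counts were 7 and 2, and on log2(RPKM + 1) 3 and 3. EGF, EREG, BTC, EPGN and NRG3 had 8 counts or fewer in every library and were not tested. The other receptors, ligands and signalling genes below were listed with earlier results of these data known, so their counts describe and do not add independent evidence. For this list and each list below, the share over all genes tested was 24.4% higher and 24.0% lower in the main fit.

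The PDGF ligands went both ways. PDGFB had 2.47 and 3.11 CPM in siCBX3 and 0.372 and 0.902 CPM in siNC (log2 fold change 2.11, SE 0.32, adjusted p 6.6e-06), and 2.90 without siNC replicate 2. PDGFC had 12.5 and 14.7 CPM in siCBX3 and 6.63 and 9.64 CPM in siNC (0.74, SE 0.14, adjusted p 0.000161), a call lost on log2(RPKM + 1) (adjusted p 0.0613). PDGFD, a PDGFRB ligand, fell to 1.30 and 0.580 CPM in siCBX3, against 3.08 and 2.90 CPM in siNC (-1.67, SE 0.29, adjusted p 3.69e-05), and its log2 fold change was -2.36 without siCBX3 replicate 1. PDGFA, whose homodimer binds PDGFRA, averaged 21.3 ± 1.38 CPM in siCBX3 and 18.2 ± 0.776 CPM in siNC (log2 fold change 0.23, adjusted p 0.0560), and passed without siNC replicate 1 (adjusted p 0.0496).

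HGF, the MET ligand made mainly by mesenchymal cells, rose although it stayed scarce, with 47 and 31 counts in siCBX3 and 12 and 8 in siNC. Its log2 fold change was 2.08 (SE 0.47, adjusted p 0.000723), but 0.12 on log2(RPKM + 1), where the call was lost (adjusted p 0.0807). Ligand and receptor thus differed in opposite directions for MET, and in the same direction for KIT and KITLG.

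Among EGFR-family ligands, HBEGF, the gene of the membrane-anchored HB-EGF, rose to 24.1 ± 0.793 CPM in siCBX3, against 15.4 ± 2.49 CPM in siNC (n = 2 each; log2 fold change 0.65, SE 0.11, adjusted p 2.49e-05). NRG2, a neuregulin that binds ERBB3 and ERBB4, fell to 13.1 ± 0.644 CPM in siCBX3, against 20.4 ± 0.689 CPM in siNC (-0.64, SE 0.10, adjusted p 1.6e-05). NRG4, an ERBB4 ligand, fell by 0.51 on the log2 scale (adjusted p 0.0258), a call lost without siCBX3 replicate 2 (adjusted p 0.179) or siNC replicate 1 (0.104) and with DESeq2 (0.107), and it shares 38.1% of its exon bases with other features. NRG1 (-0.16, adjusted p 0.309), TGFA (-0.41, 0.149) and AREG (0.74, 0.154) did not pass, though TGFA passed without siCBX3 replicate 2 (-0.70, adjusted p 0.0389).

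GAS6, the main AXL ligand, averaged 8.92 ± 1.19 CPM in siCBX3 and 9.70 ± 0.694 CPM in siNC and did not pass (log2 fold change -0.12, adjusted p 0.474). PROS1, the gene of protein S, which binds the related receptors TYRO3 and MERTK, rose by 0.48 (adjusted p 0.00445), but failed without siCBX3 replicate 2 (adjusted p 0.0900) or siNC replicate 2 (0.31, adjusted p 0.0639) and on RPKM. WNT5A, which signals through ROR1 and ROR2, rose to 77.7 ± 2.86 CPM in siCBX3, against 19.8 ± 2.41 CPM in siNC (log2 fold change 1.98, SE 0.09, adjusted p 8.02e-15).

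**Figure D4:**
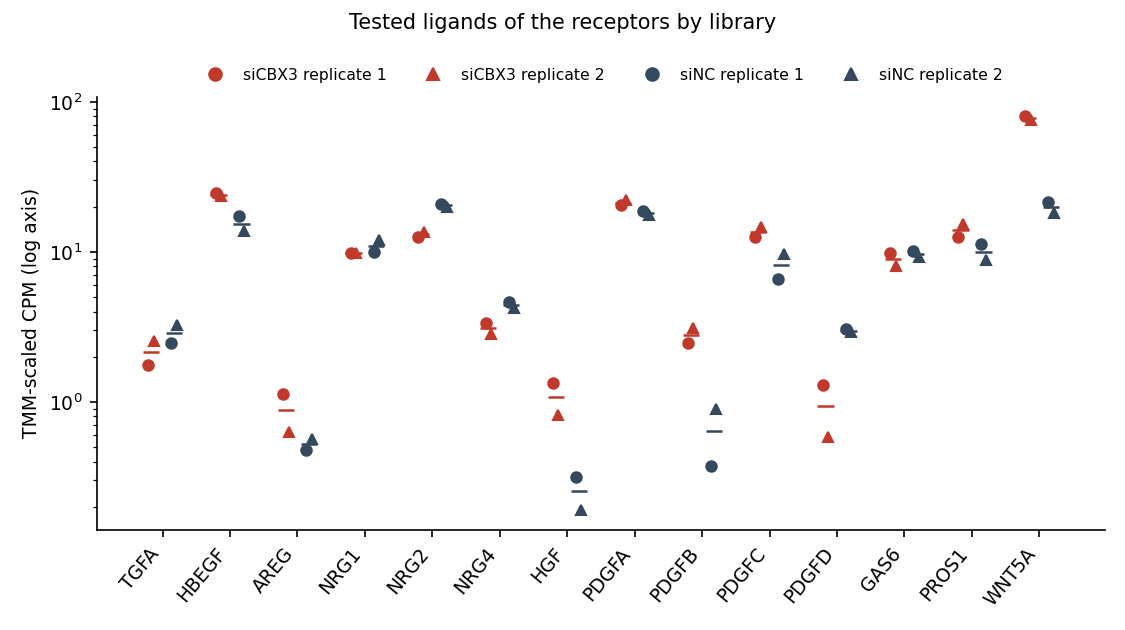
TMM-scaled CPM (log axis) of the 14 tested ligands in each library, siCBX3 in red and siNC in dark blue, circles for replicate 1, triangles for replicate 2 and a line at the mean. WNT5A, PDGFB and HGF stand higher in siCBX3 and PDGFD lower, each without overlap.

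Of 49 other receptor tyrosine kinases, 39 were tested, and 13 were higher and 18 lower in siCBX3, with a median log2 fold change of -0.12. In the main fit 24.4% of all genes were higher and 24.0% lower. With DESeq2 the counts of the list were 13 and 13, against 4299 higher and 3977 lower of all 20999 genes tested. The family relatives of the set, named after their values were seen, were read by family. The AXL relatives TYRO3 (-0.59, adjusted p 6.02e-05) and MERTK (-0.40, adjusted p 0.00153) were both lower, as was the ROR1 relative ROR2 (-0.66, adjusted p 0.000807). The relatives of KIT and the PDGF receptors parted, with CSF1R, the macrophage growth factor receptor, at 50 and 76 counts in siCBX3 and 20 and 33 in siNC (log2 fold change 1.37, adjusted p 0.00138), and FLT3 at 24 and 18 counts in siCBX3 and 50 and 46 in siNC (-1.06, adjusted p 0.0198). The FLT3 call was lost without siCBX3 replicate 2 (adjusted p 0.142) or siNC replicate 1 (0.124) and with DESeq2 (0.0910).

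The 4 other receptors with the smallest adjusted p were DDR1, EPHA2, EPHA4 and IGF1R. The collagen receptor DDR1 rose to 69.3 ± 2.78 CPM in siCBX3, against 18.5 ± 0.0998 CPM in siNC (log2 fold change 1.90, adjusted p 5.04e-15), and the insulin-like growth factor receptor IGF1R rose by 0.85 (adjusted p 1.03e-08). The ephrin receptors EPHA2 (-1.18, adjusted p 5.8e-11) and EPHA4 (-1.27, adjusted p 6.87e-10) fell. ROS1, chosen after its values were seen, had 54 and 49 counts in siCBX3 and 0 in both siNC libraries. Its mean in siCBX3 was 18.7-fold higher when siNC is set to a floor of 3 counts per library. That ratio leaves out the counting error of the siCBX3 libraries and is not a lower bound. ROS1 shares 4.34% of its exon bases with RP1-179P9.3 on the same strand.

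Among inhibitors and phosphatases that act on these receptors, 10 of 22 tested rose and 6 fell, with a median of 0.13, while 6 rose and 6 fell on log2(RPKM + 1) or log2(RPKM + 0.1). CBLB, a ubiquitin ligase that sends activated receptors to the lysosome, rose by 1.40 (SE 0.12, adjusted p 6.7e-10), and SH3KBP1, a CBL partner in receptor uptake, by 0.82 (adjusted p 1.99e-09). The receptor phosphatase PTPRJ rose by 0.88 (adjusted p 1.8e-09), and ERRFI1, a feedback inhibitor of EGFR chosen after its values were seen, by 0.62 (adjusted p 1.98e-07). UBASH3B, which counters CBL, fell to 65.8 ± 1.38 CPM in siCBX3, against 145 ± 3.84 CPM in siNC (-1.14, adjusted p 6.63e-12). The others that fell were SPRY1 (-1.84, adjusted p 0.000101), SPRED2 (-0.52, 2.24e-05), PTPN2 (-0.40, 0.000556), SPRY4 (-0.35, 0.000401) and SPRED1 (-0.35, 0.000945). The others that rose were RNF41 (0.57, adjusted p 0.00013), SPRY2 (0.47, 0.000698), SH2B3 (0.45, 1.54e-05), CBL (0.45, 0.000471), DOK1 (0.37, 0.00974) and SPRED3 (0.31, 0.0116). The Sprouty and Spred genes thus went both ways. SPRY1 was scarce, with 28 and 14 counts in siCBX3 and 64 and 102 in siNC.

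Of 34 adaptor and transducer genes, 14 rose and 6 fell, with a median of 0.12. The docking protein GAB2 rose by 1.03 (adjusted p 1.51e-09) and NRAS by 0.80 (adjusted p 1.36e-08), while CRKL, an SH2 adaptor, fell to 13.6 ± 0.735 CPM in siCBX3, against 31.1 ± 2.59 CPM in siNC (-1.19, adjusted p 5.94e-10). The PI3K regulatory gene PIK3R2 rose by 0.76 (adjusted p 2.88e-08) but shares 87.2% of its exon bases with other features, so it is uncertain.

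Transcripts that respond to ERK, the kinase below RAS, moved both ways. Of 12 tested, 4 rose and 3 fell with TMM, against 2 and 3 with upper-quartile scaling, 2 and 4 with library totals, and 2 and 3 with DESeq2 or without siCBX3 replicate 1; the TMM median was -0.08. IER3 (2.60, adjusted p 1.3e-18) and PHLDA1 (1.14, adjusted p 4.21e-12) rose, and CCND1, the gene of cyclin D1 (-1.48, adjusted p 1.81e-13), and MYC (-1.13, adjusted p 8.06e-07) fell. The ERK phosphatase DUSP6, chosen after its values were seen, averaged 161 ± 6.76 CPM in siCBX3 and 165 ± 4.61 CPM in siNC (log2 fold change -0.03, adjusted p 0.751). IER3, PHLDA1, CCND1 and DUSP6 share 26.5%, 16.5%, 10.3% and 40.5% of their exon bases with other features.

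Of 11 tested genes that cut or activate ligands and receptors, 4 rose and 3 fell with a median of 0.20, against 2 and 3 without siCBX3 replicate 1 or on either RPKM scale. The protease ADAM10, which sheds EGF and betacellulin, fell by 0.85 (adjusted p 3.32e-09). RHBDF2, which guides ADAM17 to the surface, rose by 0.65 (adjusted p 2.32e-05) and ADAM12 by 1.14 (adjusted p 8.89e-06). PLAT, the gene of tissue plasminogen activator, fell to 11.4 ± 0.760 CPM in siCBX3, against 43.0 ± 2.43 CPM in siNC (-1.91, adjusted p 5.28e-14). ADAM17, the main sheddase of EGFR ligands, chosen after its values were seen, averaged 71.1 ± 2.64 CPM in siCBX3 and 65.8 ± 10.5 CPM in siNC (0.11, adjusted p 0.323). It passed without siNC replicate 1 (0.28, adjusted p 0.00505), and it shares 24.1% of its exon bases.

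Among 9 tested transcription factors linked to KIT in other lineages, 5 fell and 1 rose, with a median of -0.52. Over all genes tested 24.0% were lower and 24.4% higher. MITF, which acts on KIT in mast cells, fell to 1.07 ± 0.171 CPM in siCBX3, against 4.34 ± 0.236 CPM in siNC (-2.02, SE 0.23, adjusted p 7.71e-08). TAL1, of the blood stem cell complex that acts at the KIT gene, fell by 2.38 (SE 0.42, adjusted p 4.62e-05) at 11 and 8 counts in siCBX3 and 52 and 57 in siNC. TFAP2A (-1.19, adjusted p 5.77e-05) fell as well, as did GATA2 (-0.52, adjusted p 6.08e-05) and MYB (-1.50, adjusted p 6.65e-05), both named after their values were seen to complete the count. LDB1, a partner of TAL1, rose by 0.72 (adjusted p 3.37e-08). SP1 (0.10, adjusted p 0.305), ETV1 (0.19, 0.171) and LMO2 (-0.09, 0.786) did not pass. Without siNC replicate 2, 2 of the factors rose in place of 1.

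**Figure D5:**
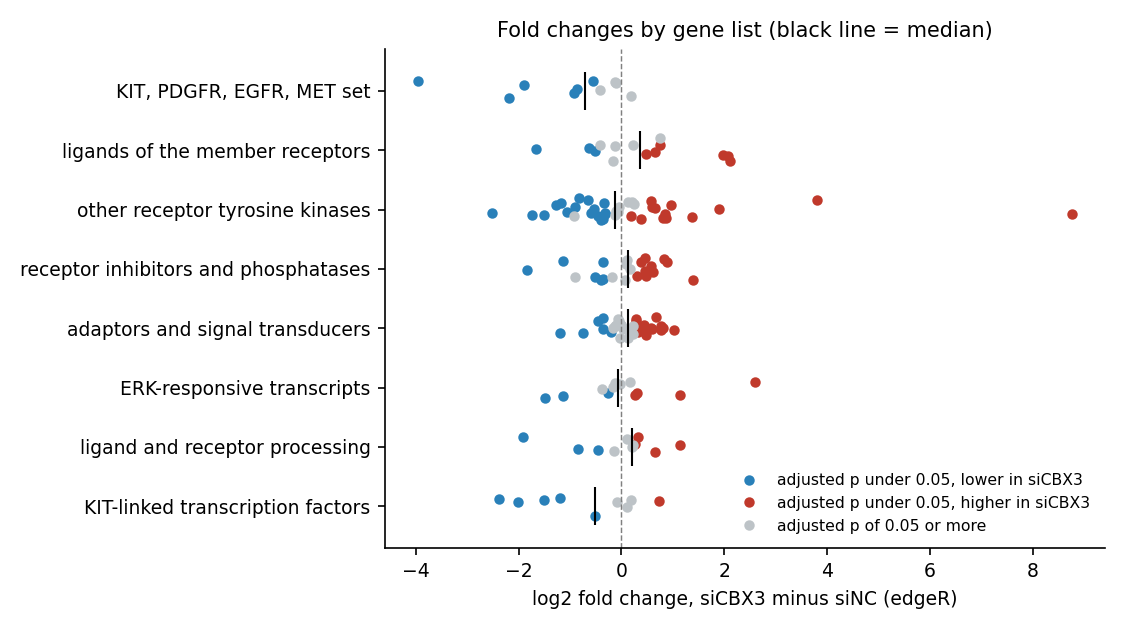
Log2 fold changes (siCBX3 minus siNC, edgeR) of the tested genes of each list, one point per gene, blue for lower and red for higher at an adjusted p under 0.05, grey otherwise, with a black line at the median. Colours of the first list are a description, since its genes were chosen on this comparison. The KIT, PDGFR, EGFR and MET set has a median of -0.71 and the ligands 0.35. The point at 8.76 is ROS1, which had no counts in siNC. Its fitted value depends on the prior count inside the edgeR fit, which is not the 2 used for log2 CPM.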

How the data were processed

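Total RNA of 4 libraries of 143B cells went into a stranded mRNA kit, per the labels' protocols. The submitters' processing notes name Trimmomatic (0.36), STAR (2.5.3a), featureCounts, Subread (1.5.1) and the build GRCh38. Tool roles, strand and overlap settings, the annotation and any use of molecular identifiers are not given in the sources used here, so overlapping and antisense genes are treated as uncertain. The authors deposited raw read counts per gene and RPKM values, and the RPKM could be rebuilt from counts, exon lengths and column sums with a largest relative error of 3.79e-07. Count columns were tied to samples by name. Counts were fitted in R 4.3.3 with edgeR 4.0.16 (filterByExpr, minimum count 10 and total 15; TMM; quasi-likelihood test; group as the only term; 2 residual degrees of freedom), and Benjamini-Hochberg adjusted p under 0.05 over 20999 genes was the threshold. The prior degrees of freedom were 22 (median over genes), so each test leaned mostly on scatter shared across genes. Each SE was derived by dividing the absolute log2 fold change by the square root of F. The log2 CPM used a prior count of 2.

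The 10 genes and all lists were chosen with earlier results of these data known. The genes named are CBX3, the 10 genes, every tested ligand, from every other list the 4 genes ranked first by adjusted p, and the 5 genes nearest to KIT, of which 1 is not reported here. Another 11 genes (TYRO3, MERTK, ROR2, CSF1R, FLT3, ROS1, ERRFI1, DUSP6, ADAM17, GATA2 and MYB) were named after their values were seen. So were single cell type markers, genes that share exon bases with the set, and further genes of the inhibitor and KIT-linked factor lists. Replicate counts differed by more than sampling noise (chi-square per degree of freedom 6.99 in siCBX3 and 11.9 in siNC). Alternatives, 13 in all, used upper-quartile scaling, library totals, DESeq2 1.42.0, limma-voom (limma 3.58.1), other filters, log2(RPKM + 1) and log2(RPKM + 0.1), a replicate block, and each library left out. The edgeR step was also run on simulated counts. These gave every gene the same scatter and changed few genes, unlike the real data, so nothing is read from that run. The floor of 3 counts set for a gene with no reads covers counting error only, as reads may be PCR copies. Figures used Python 3.11.15 and matplotlib 3.10.9.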

Additional observations from a re-analysis of the deposited data

How the results depend on the processing

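The number of genes past the threshold was 10173 and ranged from 8276 (DESeq2) to 10630 (replicate block) over the 13 alternatives; on log2(RPKM + 1) 3584 were higher and 5013 lower. Of the 10 genes 5 to 7 were past it, and leaving out each library in turn gave 8341 to 9654 genes overall and 5 to 7 of the 10. Since the 10 genes were chosen on this comparison, their calls are a description and their stability supports nothing; EGFR passed in 1 alternative and ERBB3 in 8. For KIT and KITLG the log2 fold change was -0.71 and -0.72 on log2(RPKM + 1), where the added 1 shrinks low values. PDGFRB gave no value under the filter of a mean of at least 50 counts. For 65 named genes 815 of 838 alternative values left the call as it was, 19 no longer passed the threshold and 4 newly passed it. Direction turned round in none of the calls. With the replicate block the same 6 of the 10 genes passed; replicate numbers share no stated batch, and deviations from the group means correlated across genes at 0.0287 between same-numbered libraries, so the numbers were not treated as pairs. ROR1, PDGFRB and ERBB3 had 127 counts or fewer in every library, as KIT had 10 or fewer in siCBX3; whether depth limits their calls was not tested.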
